A study of Mus musculus with 2 samples.

Results

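The PYHIN genes are a cluster of interferon-inducible genes on mouse chromosome 1, and 8 of them are described here: Ifi203, Ifi204, Ifi205, Mnda, Mndal, Pyhin1, BC094916 and Aim2. They were taken by symbol from the 27998 genes listed in 2 single-cell count matrices, and all 8 were found. The matrices come from B16 tumours, a transplanted mouse melanoma, and hold CD45+ leukocytes sorted from female C57BL/6 mice, 5 weeks old, on day 14 after the tumour cells were given. Both genotypes carry Foxp3Cre-YFP, a Cre recombinase and fluorescent reporter driven by the Foxp3 gene of regulatory T cells. Mice with Foxp3Cre-YFP alone gave the control library, and the other came from Nrp1L/LFoxp3Cre-YFP mice (called Nrp1L/L below), whose floxed Nrp1 encodes neuropilin-1. There was 1 library per genotype, and the number of mice behind each is not given in the sources used here. Differences between the libraries therefore have no replicate check: genotype and library cannot be told apart, no p-value is given, and every interval covers counting error only, at 95%.

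Most PYHIN proteins join a pyrin domain, which binds other pyrin domains, to a HIN domain, which binds DNA. Aim2 is the best known of them: it senses double-stranded DNA in the cytosol and assembles an inflammasome with the adaptor Pycard and the protease Casp1, which matures interleukin-1 beta and interleukin-18. Ifi204 is a mouse relative of human IFI16 and has been linked to STING signalling from foreign DNA. Many genes of the cluster are interferon-induced, and their repertoire differs between mouse strains, with copies so alike that single members are hard to tell apart.

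The control library held 1310 barcodes and 13042802 unique molecular identifiers (UMIs, which count captured transcripts), and the Nrp1L/L library held 1301 barcodes and 8978610 UMIs. The 26 barcodes with the highest doublet scores were left out of each library, and 3 barcode sequences occurred in both. Of the floxed gene no check was possible in the cells that drive the Cre, since a Foxp3 UMI was found in 3 cells of each library, of which 0 control cells and 1 Nrp1L/L cell had an Nrp1 UMI. Cells were assigned by counts of defining genes, and cells that met more than 1 definition were left out. CD8 T cells had at least 2 CD3 and 2 CD8 UMIs, and NK cells at least 2 UMIs of Ncr1 and Klrb1c. Macrophages had at least 10 UMIs of the C1q genes, and monocytes at least 10 UMIs of Lyz2 with fewer than 10 C1q UMIs. This gave 228 control and 385 Nrp1L/L CD8 T cells, 112 and 231 NK cells, 272 and 93 macrophages, and 324 and 143 monocytes. Median depth per cell was 10823 and 6579 UMIs in CD8 T cells, 6245 and 4320 in NK cells, 10879 and 8742 in macrophages, and 7772 and 8197 in monocytes, in the same order. The 7 macrophage markers summed to 18574 and 19173 CPM (UMIs scaled to a total of 1000000 per group of cells and library) in macrophages. In CD8 T cells they summed to 92.2 and 45.5 CPM. NK cells were not required to lack CD3 UMIs. The 5 T cell markers summed to 975 and 1373 CPM in NK cells, against 4651 and 6550 in CD8 T cells. Among them, Cd3d stood at 153 and 301 CPM and Cd3g at 325 and 245 in NK cells. Their part in the NK cell results was not tested. The share of cells with at least 2 UMIs of the proliferation genes Mki67, Top2a, Birc5 and Ube2c also differed between the libraries, at 47.8% and 26.0% of CD8 T cells and at 26.1% and 8.60% of macrophages.

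All 8 genes lie within 681 kb of chromosome 1 (GRCm38, the same assembly as mm10, from 173350879 to 174031810), with Aim2 and Pyhin1 on the plus strand and the other 6 on the minus strand. Current annotation calls BC094916 Ifi214, Pyhin1 Ifi209 and Mnda Ifi211. The upstream sequences of several members are copies of each other. RefSeq promoters (GRCm38.p6, 250 bases before to 50 after each annotated start) were matched for 7 of the 8 genes, all but Ifi204. They were searched on both strands for 3 words: GAAANNGAA, the core of the interferon-stimulated response element (ISRE), TTCNNNGAA, the gamma-activated site, and GAGGAAGT, a site of the myeloid factor PU.1. The ISRE and gamma-activated words can overlap. The ISRE word was in 5 of the 7 genes' promoters, against 8.56% of the 32851 promoters of the table; the gamma-activated word was in 0 of 7 (8.30% of all), and the PU.1 word was in Aim2 alone (3.20% of all). A match is a description of letters and not a bound site, and the lack of one says only that the letters are not in the window. The 100 bases before the start, with the ISRE word in capitals, are shown for BC094916, which had the largest ratio between the libraries in CD8 T cells, and its near copy Pyhin1, for a gene that stood mainly in myeloid cells (Mnda), and for the near-identical starts of Mndal and Ifi203. The stretches, in that order, are chr1:173535958-173536057 (minus strand), chr1:173630759-173630858 (plus), chr1:173913047-173913146 (minus), chr1:173880188-173880287 (minus) and chr1:173942493-173942592 (minus).
BC094916: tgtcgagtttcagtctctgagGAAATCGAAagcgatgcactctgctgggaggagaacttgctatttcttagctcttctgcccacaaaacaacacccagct
Pyhin1: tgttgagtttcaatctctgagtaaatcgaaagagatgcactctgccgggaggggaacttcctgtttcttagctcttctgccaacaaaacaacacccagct
Mnda: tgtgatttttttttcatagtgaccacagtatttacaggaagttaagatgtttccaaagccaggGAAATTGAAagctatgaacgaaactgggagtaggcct
Mndal: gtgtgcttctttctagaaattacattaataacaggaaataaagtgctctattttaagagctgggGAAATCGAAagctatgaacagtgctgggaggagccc
Ifi203: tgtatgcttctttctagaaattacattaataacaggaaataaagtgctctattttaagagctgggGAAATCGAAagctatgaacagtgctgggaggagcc

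BC094916 and Pyhin1 were identical at 91 of these 100 bases without a gap. Of their 9 differences, counted from 1 at the first printed base with the BC094916 base first, G22T alone falls within the capitals, so that the Pyhin1 stretch lacks the word. The Mndal and Ifi203 stretches, from RefSeq starts far apart on the chromosome, shared an unbroken run of 96 bases. In GENCODE, however, the minus-strand span of Mndal begins at 173942491, beside the Ifi203 start used here (173942492). The stretch named Ifi203 thus also lies before that Mndal start. The ISRE word began 79 bases before the start in BC094916, 37 in Mnda, 36 in Mndal and 35 in Ifi203 (the second of its listed starts), and in Ifi205 134 bases before it, outside the stretch shown for the others.

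The likeness extends to the ends of the transcripts, which are what a 3' assay reads, and it limits what the counts of some members mean. Over the last 500 bases of the coding transcripts, 79.2% of the 50-base words of Ifi205 also occurred in Mnda, and 77.4% of those of Mnda in Ifi205. For BC094916 and Pyhin1 the share was 63.4% in each direction. It was 18.7% for Mndal, with any other gene, and 2.22% or less for Ifi203, Ifi204 and Aim2. Mndal is also annotated as a span of 93366 bases on the minus strand that overlaps Mnda and Ifi203. Counts within the pairs Ifi205 and Mnda, and BC094916 and Pyhin1, and to a lesser extent for Mndal, are therefore uncertain, and the sums of each pair are given beside the single genes.

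The lymphoid and myeloid cells drew on different members. The 8 genes together made up 405 CPM of control and 606 CPM of Nrp1L/L CD8 T cells, 428 and 573 CPM of NK cells, 981 and 1784 CPM of macrophages, and 2237 and 3927 CPM of monocytes. Monocytes thus held the most PYHIN transcripts in both libraries and CD8 T cells and NK cells the least. Since each transcript is counted once from its 3' end, the values were not divided by gene length. Mndal was the most abundant member in CD8 T cells, with 42.0% of the family's UMIs in the control and 34.6% in Nrp1L/L cells, and in control NK cells with 40.1%. In Nrp1L/L NK cells Pyhin1 led with 27.7% against 26.3% for Mndal. In macrophages and monocytes of both libraries Ifi204 led, with 24.6% to 30.5%.

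**Figure D1:**
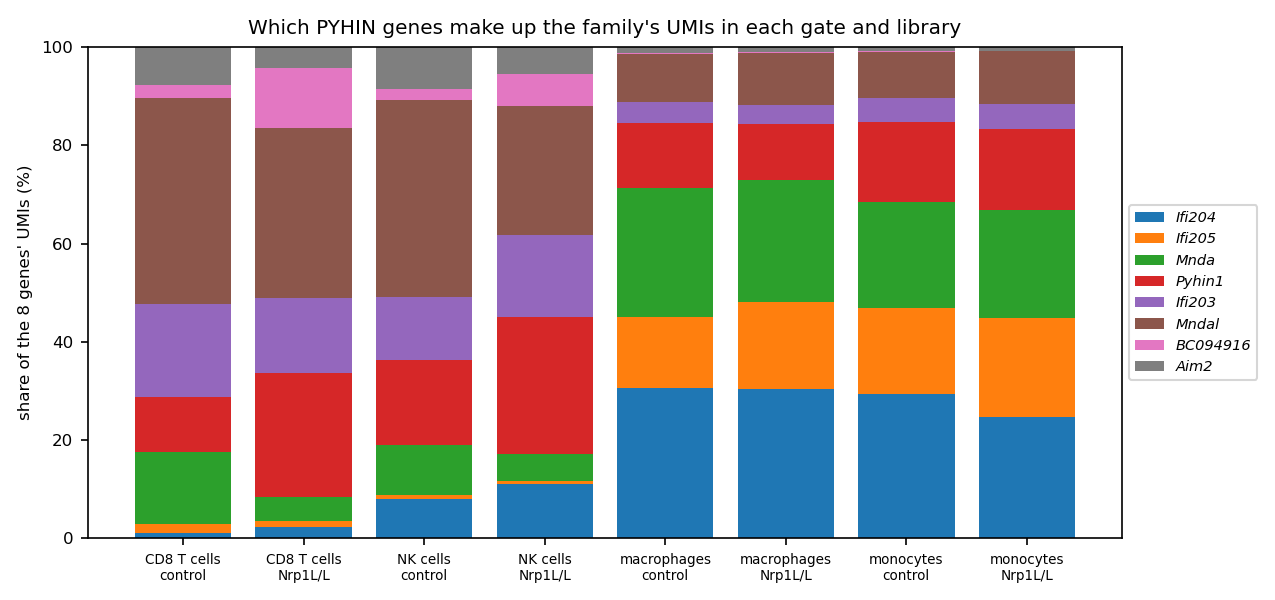
Share of the UMIs of the 8 PYHIN genes taken by each gene (y axis, percent), in 4 groups of cells of the control and Nrp1L/L libraries (x axis). Mndal fills the largest part of the CD8 T cell bars (42.0% and 34.6%), and Ifi204, Ifi205 and Mnda fill most of the macrophage and monocyte bars.

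Ifi204, Ifi205 and Mnda were the members of the myeloid cells. Each was at least 4-fold higher in macrophages and monocytes combined than in CD8 T and NK cells combined, in both libraries. That is 3 of 8 members, where 8.25% of 9134 genes with enough UMIs passed the same rule. No member was at least 4-fold higher in the lymphoid cells in both libraries (0 of 8, against 7.57% of genes). The mix of the combined myeloid cells differed between the libraries. Macrophages and monocytes held 3225054 and 2599099 UMIs in the control, and 917574 and 1163568 in the Nrp1L/L library. The part of this mix in the lineage ratios was not tested.

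Ifi204 stood at 4.16 CPM (2.15 to 7.27) in control CD8 T cells, 34.3 (23.5 to 48.4) in NK cells, 299 (281 to 319) in macrophages and 654 (624 to 686) in monocytes. Its Nrp1L/L values were 14.4 (10.6 to 19.1), 63.5 (49.7 to 79.9), 541 (494 to 590) and 966 (910 to 1024) CPM. The order of the 4 groups was the same in both libraries, and no neighbouring intervals overlapped. Myeloid over lymphoid, the ratio was 39.7-fold in the control and 29.0-fold in Nrp1L/L cells. After each cell was thinned to 2500 UMIs, which puts all cells at 1 depth, 46.0% of control macrophages and 65.1% of control monocytes had an Ifi204 UMI, against 0.439% of CD8 T cells and 5.36% of NK cells (54.8%, 74.1%, 3.64% and 7.79% in the Nrp1L/L library).

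Free RNA in the droplets gives every cell a few foreign UMIs, and 6 macrophage and monocyte genes that lymphocytes largely lack (Csf1r, Apoe, Ms4a7, Adgre1, Cd14 and Cd68) set its size. In CD8 T cells they reached 0.843% to 2.22% of their myeloid level in the control and 0 to 2.01% in the Nrp1L/L library. Ifi204 in control CD8 T cells, at 0.909% of its myeloid level, was within the range. In Nrp1L/L CD8 T cells it stood at 1.85%, below Cd68 at 2.01% but above the other 5 genes, which reached at most 0.733%. In NK cells the 6 genes reached at most 2.54% and 2.29%, while Ifi204 stood at 7.50% and 8.15%. Its NK cell UMIs lay in few cells: 11 of 112 control cells held all 32 UMIs, and 25 of 231 Nrp1L/L cells held all 72.

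Ifi205 was the most strictly myeloid member in the Nrp1L/L library. Its control levels were 7.63 CPM (4.78 to 11.6) in CD8 T cells, 3.22 (0.663 to 9.40) in NK cells, 143 (130 to 156) in macrophages and 393 (369 to 418) in monocytes. Nrp1L/L cells in the same order gave 7.49 (4.84 to 11.1), 3.53 (0.961 to 9.03), 315 (280 to 353) and 792 (741 to 844) CPM. The CD8 T and NK cell intervals overlapped in both libraries, while macrophages and monocytes stood apart from them and from each other. Myeloid over lymphoid, the ratio was 38.8-fold in the control and 89.7-fold in Nrp1L/L cells. Its level in CD8 T cells was 3.0% and 1.29% of its myeloid level, the former above the 2.22% reached by the 6 marker genes and the latter within their range.

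Mnda, named after the human myeloid cell nuclear differentiation antigen, was also mainly myeloid but was not confined to those cells. In the control it stood at 59.3 CPM (50.7 to 68.9) in CD8 T cells, 44.0 (31.5 to 59.6) in NK cells, 257 (240 to 275) in macrophages and 484 (457 to 511) in monocytes. The Nrp1L/L levels were 29.0 (23.6 to 35.4), 31.7 (22.2 to 43.9), 446 (404 to 491) and 862 (809 to 917) CPM. The CD8 T and NK cell intervals overlapped in both libraries. Its CD8 T cell level was 16.6% of the myeloid level in the control and 4.28% in Nrp1L/L cells, above the range of the 6 myeloid marker genes in both. The lineage ratio was 6.45-fold in the control and 22.8-fold in Nrp1L/L cells, and both sides of it differed. In the Nrp1L/L library Mnda was lower in the combined lymphoid cells and higher in the combined myeloid cells. For NK cells alone, however, the intervals of the libraries overlapped. Ifi205 and Mnda, whose 3' ends share sequence, were not counted in a fixed proportion: there were 12.9 Ifi205 UMIs per 100 Mnda UMIs in control CD8 T cells and 81.3 in control monocytes.

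Pyhin1 was found in all 4 groups. In the control it stood at 45.1 CPM (37.7 to 53.5) in CD8 T cells, 74.0 (57.6 to 93.6) in NK cells, 132 (120 to 145) in macrophages and 362 (339 to 386) in monocytes. Its Nrp1L/L values were 153 (140 to 167), 159 (136 to 184), 202 (174 to 233) and 647 (602 to 695) CPM. The 4 levels were apart in the control, whereas in the Nrp1L/L library the NK cell interval overlapped those of CD8 T cells and macrophages. The lineage ratio was 4.50-fold in the control and 2.91-fold in Nrp1L/L cells, so the 4-fold rule was met in the control alone.

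Ifi203 and Mndal had the lineage ratios nearest to equality in the control, but neither was even within the myeloid cells. Monocytes over macrophages, the ratio was 2.75-fold (control) and 2.83-fold (Nrp1L/L) for Ifi203, and 2.16-fold and 2.24-fold for Mndal. Ifi203 stood at 76.6 CPM (66.9 to 87.4) in control CD8 T cells, 54.7 (40.7 to 71.9) in NK cells, 40.6 (34.0 to 48.2) in macrophages and 112 (99.1 to 125) in monocytes. Nrp1L/L cells in the same order gave 92.5 (82.5 to 103), 96.1 (78.9 to 116), 69.7 (53.7 to 89.1) and 198 (173 to 225) CPM. Monocytes were highest in both libraries, and the other 3 groups overlapped with at least 1 neighbour. The lineage ratio was 1.01-fold in the control and 1.51-fold in Nrp1L/L cells.

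Mndal stood at 170 CPM (155 to 186) in control CD8 T cells, 172 (146 to 200) in NK cells, 95.8 (85.4 to 107) in macrophages and 207 (190 to 225) in monocytes. The Nrp1L/L levels were 210 (195 to 226), 151 (129 to 175), 190 (163 to 220) and 425 (388 to 464) CPM. Macrophages were the lowest group in the control and had an interval that overlapped those of both lymphoid groups in the Nrp1L/L library. The lineage ratio was 0.854-fold in the control and 1.65-fold in Nrp1L/L cells. The combined lymphoid cells were thus ahead in the former and the combined myeloid cells in the latter. Of the single groups, however, monocytes had the highest level in the control too.

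BC094916 and Aim2 had the lowest summed counts, and neither was higher in the myeloid cells combined in either library. BC094916 stood at 11.1 CPM (7.59 to 15.7) in control CD8 T cells, 9.65 (4.41 to 18.3) in NK cells, 2.17 (0.873 to 4.47) in macrophages and 6.93 (4.10 to 10.9) in monocytes. Its Nrp1L/L values were 73.7 (64.7 to 83.5), 37.0 (26.7 to 50), 3.27 (0.674 to 9.55) and 6.02 (2.42 to 12.4) CPM. CD8 T cells stood apart from all other groups in the Nrp1L/L library, while in the control their interval overlapped those of NK cells and monocytes. The lymphoid over myeloid ratio was 2.50-fold in the control and 13.4-fold in Nrp1L/L cells. Its low myeloid counts were set against 6 lymphoid genes (Cd2, Lat, Lck, Cd247, Il2rb and Nkg7), which in the myeloid cells reached 0.615% to 2.42% of their lymphoid level in the control and 1.15% to 4.09% in Nrp1L/L cells. BC094916 stood above the control range, at 20.2% in macrophages (7 UMIs) and 64.5% in monocytes (18 UMIs). In the Nrp1L/L library it stood at 5.08% (3 UMIs) and 9.35% (7 UMIs). These values are also above the range, but their counting intervals reach down into it. BC094916 and Pyhin1 were not counted in a fixed proportion either: per 100 Pyhin1 UMIs there were 24.6 BC094916 UMIs in control and 48.0 in Nrp1L/L CD8 T cells, against 0.930 to 1.91 in the macrophages and monocytes of either library.

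Aim2, the inflammasome sensor, was scarce everywhere. It stood at 30.9 CPM (24.8 to 38.0) in control CD8 T cells, 36.5 (25.2 to 50.9) in NK cells, 11.8 (8.34 to 16.2) in macrophages and 17.7 (13.0 to 23.6) in monocytes. Nrp1L/L cells in the same order gave 26.1 (20.9 to 32.1), 31.7 (22.2 to 43.9), 18.5 (10.8 to 29.7) and 31.8 (22.4 to 43.8) CPM. Lymphoid cells were apart from myeloid cells in the control, whereas all 4 intervals overlapped in the Nrp1L/L library. The lymphoid over myeloid ratio was 2.23-fold and 1.06-fold. After thinning, 6.14% of control and 5.45% of Nrp1L/L CD8 T cells had an Aim2 UMI, and in macrophages 1.84% and 5.38%.

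**Figure D2:**
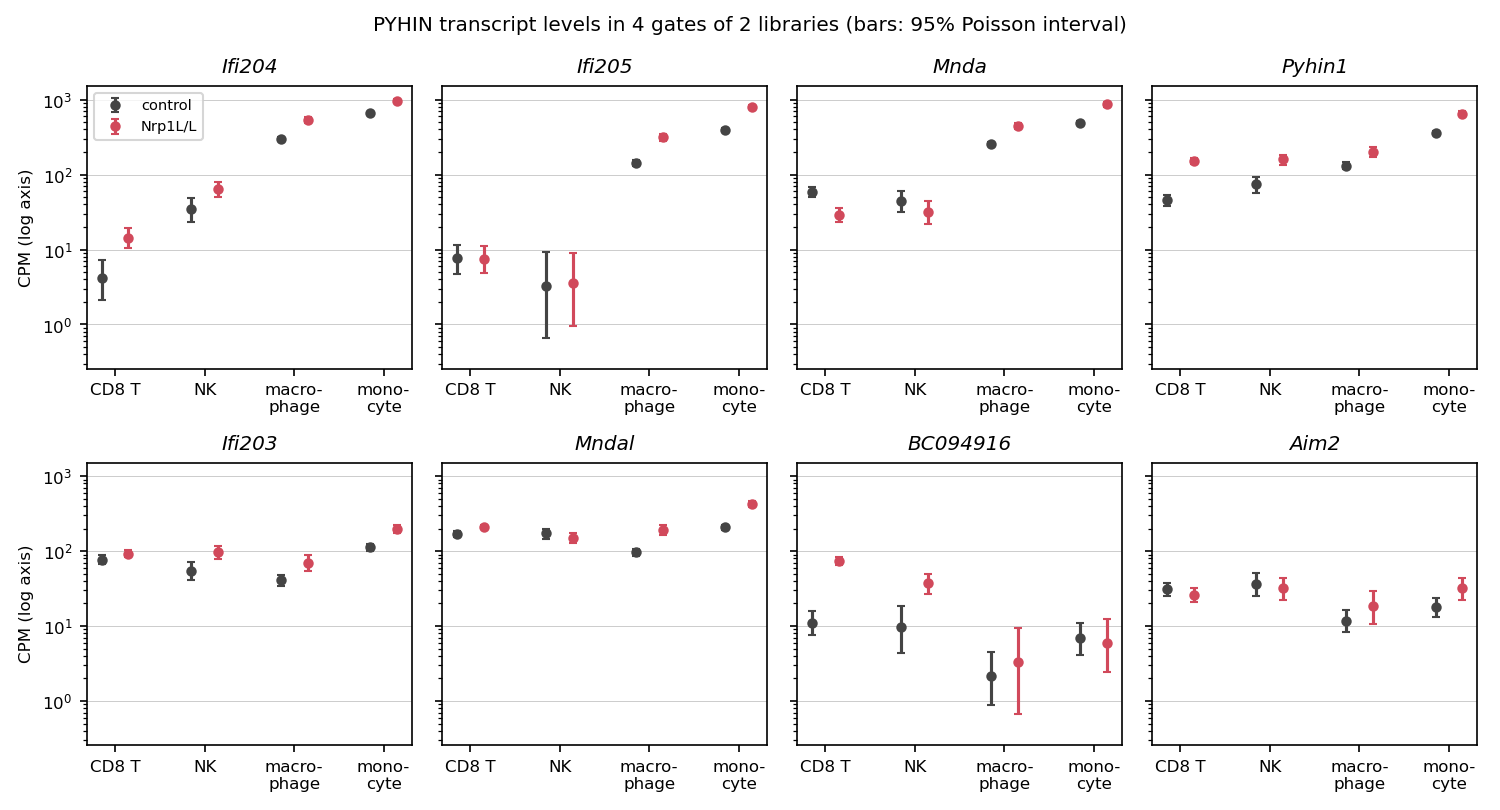
Level of each PYHIN gene (y axis, CPM of the group's summed UMIs, log axis) in 4 groups of cells (x axis) of the control (grey) and Nrp1L/L (red) libraries; bars are 95% Poisson intervals, which cover counting error only. Ifi204 climbs from 4.16 CPM in control CD8 T cells to 654 CPM in control monocytes, whereas BC094916 is highest in Nrp1L/L CD8 T cells at 73.7 CPM.

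**Figure D3:**
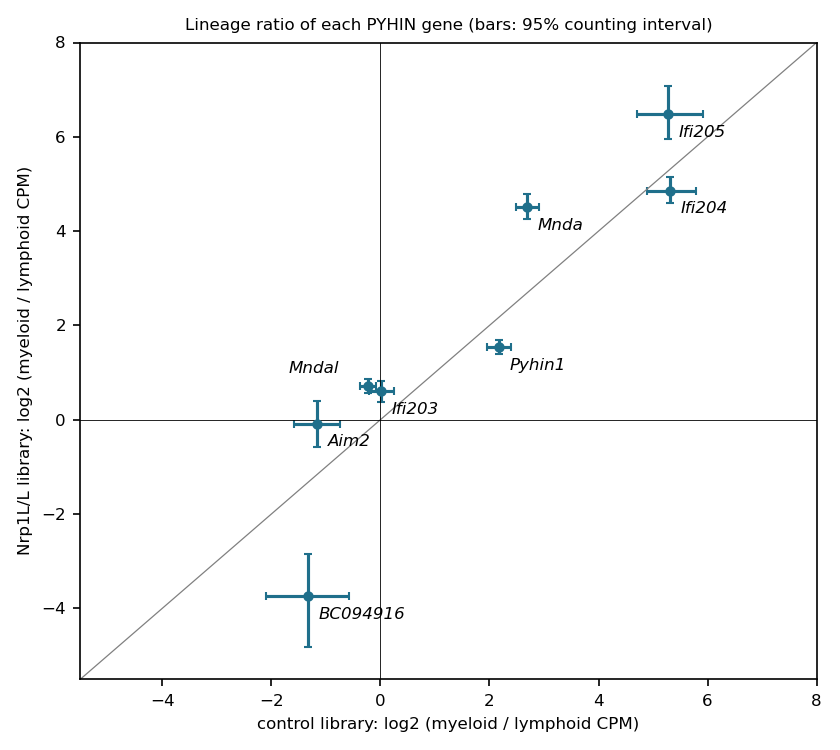
Log2 ratio of myeloid (macrophage and monocyte) over lymphoid (CD8 T and NK) CPM for each PYHIN gene in the control (x axis) and Nrp1L/L (y axis) libraries; bars are 95% counting intervals and the diagonal marks equal ratios. Ifi204 and Ifi205 lie at 5.31 and 5.28 in the control, BC094916 lies below 0 in both libraries, and Mnda lies above the diagonal at 2.69 and 4.51.

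Within the myeloid cells, monocytes held more of every member than macrophages. All 7 members that reached 20 UMIs in each library were at least 1.5-fold higher in monocytes in both libraries, against 9.89% of 6117 genes. The ratio was 2.19-fold (control) and 1.79-fold (Nrp1L/L) for Ifi204, 2.76-fold and 2.51-fold for Ifi205, and 2.75-fold and 3.21-fold for Pyhin1. It was smallest for Aim2 in both libraries, at 1.5-fold and 1.72-fold, with intervals that included equality (log2 0.59, -0.06 to 1.25, and log2 0.78, -0.09 to 1.70). BC094916, the eighth gene, had too few UMIs in the Nrp1L/L library (log2 0.88, -1.25 to 3.46).

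More members were also detected per cell in monocytes, a number that rises with the level of the family. Whether members occur together beyond that was not tested. At 2500 UMIs per cell, the mean number of the 8 genes detected was 0.829 in control CD8 T cells, 0.821 in NK cells, 1.60 in macrophages and 2.64 in monocytes. In the Nrp1L/L library the means were 1.11, 0.835, 2.31 and 3.62. At least 4 members were detected in 33.6% of control and 58.0% of Nrp1L/L monocytes, but in 0.439% and 2.60% of CD8 T cells. None of the 8 was detected in 45.6% of control and 29.6% of Nrp1L/L CD8 T cells.

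**Figure D4:**
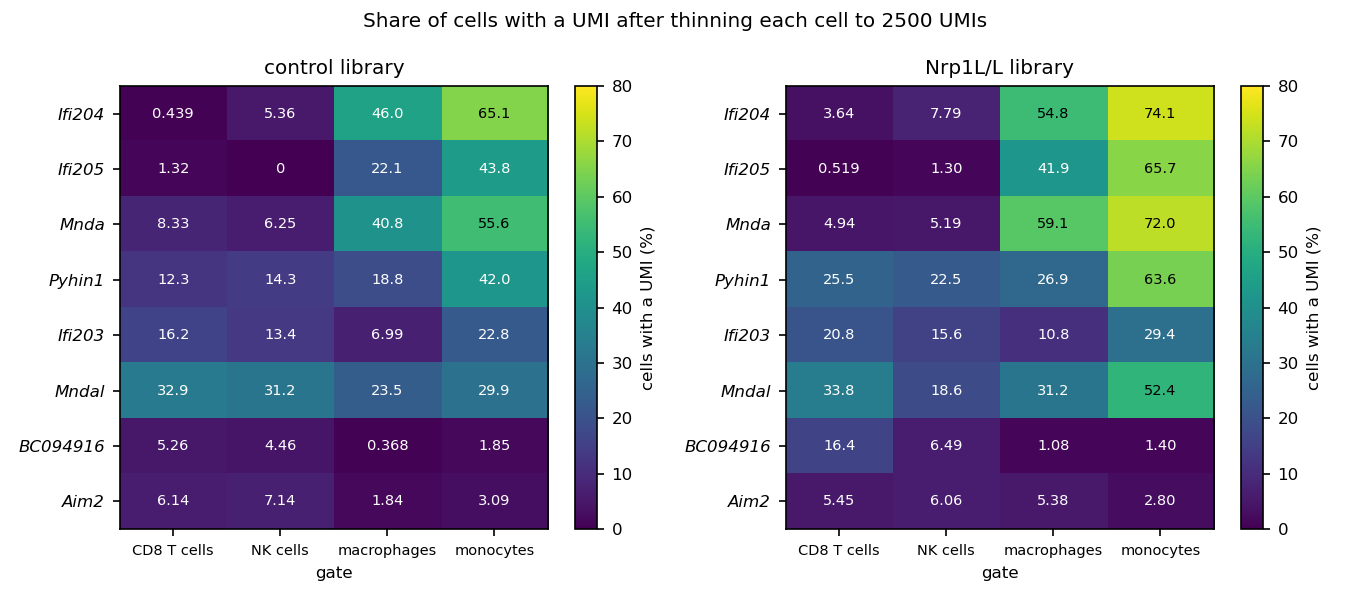
Share of cells with at least 1 UMI of each PYHIN gene (color and number, percent) after every cell was thinned to 2500 UMIs, by group of cells (columns) in the control and Nrp1L/L libraries. Ifi204 is found in 65.1% and 74.1% of monocytes, and BC094916 in 5.26% and 16.4% of CD8 T cells.

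The question of the series' design is how the tumour's leukocytes differ when Nrp1 is floxed in Foxp3-expressing cells. In the myeloid cells most PYHIN genes stood higher in the Nrp1L/L library. In macrophages all 7 members that reached 20 UMIs in total were at least 1.5-fold higher and 0 lower, where 14.4% of 7978 genes were higher and 23.3% lower by the same fold. In monocytes 6 of 8 members were higher and 0 lower, against 16.1% and 17.3% of 7327 genes. The median log2 ratio of the members was 0.79 in macrophages and 0.84 in monocytes, beside -0.11 and 0.00 for all genes measured. Markers of other cell states differed between the libraries in the same groups. In macrophages the sum of the 5 monocyte markers was 11328 and 11429 CPM, within which Ly6c2 stood at 805 and 1991 CPM and Plac8 at 1800 and 2785, while the macrophage marker Apoe stood at 4248 and 2646 CPM. In monocytes the 5 dendritic cell markers summed to 104 CPM with 5 detected in the control and to 425 CPM with 3 detected in Nrp1L/L cells, of which Cd209a made up 72.3 and 410 CPM and Zbtb46 and Xcr1 were at 0 in Nrp1L/L cells. Their part in the PYHIN results was not tested.

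Ifi205 had the largest ratio in macrophages, at log2 1.14 (0.93 to 1.36), and Mndal in monocytes, at 1.04 (0.86 to 1.22). Ifi204, the most abundant member, was higher by log2 0.85 (0.69 to 1.01) in macrophages and by 0.56 (0.45 to 0.67) in monocytes, where the ratio was 1.48-fold. Mnda was higher by 0.79 (0.62 to 0.97) and 0.83 (0.71 to 0.95). The summed UMIs of Ifi205 and Mnda gave 0.93 (0.79 to 1.06) and 0.92 (0.83 to 1.00).

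Ifi203 was higher by log2 0.78 (0.33 to 1.22) in macrophages and 0.83 (0.57 to 1.08) in monocytes. Pyhin1 was higher by 0.61 (0.36 to 0.87) and 0.84 (0.70 to 0.98). Macrophages without cycling cells, whose share differed between the libraries, gave 0.38 (0.11 to 0.64) for Pyhin1 and 0.56 (0.37 to 0.74) for Mnda, both under 1.5-fold. The Pyhin1 ratio in macrophages was also smaller when cells were thinned before they were assigned (0.12) or each cell's CPM was averaged (0.21), and that of Ifi203 was larger under thinning (1.54). The cycling macrophages, 71 control and 8 Nrp1L/L cells, gave -0.01 (-0.74 to 0.64) for Ifi204, -0.67 (-2.34 to 0.61) for Ifi205, -0.38 (-1.63 to 0.65) for Mndal and -0.41 (-2.34 to 1.03) for Ifi203, whereas Mnda was at 0.89 (0.26 to 1.47) there. Aim2 was higher by 0.65 (-0.26 to 1.51) in macrophages, an interval that includes 0, and by 0.85 (0.18 to 1.5) in monocytes. BC094916 alone stood slightly lower in monocytes, at -0.20 (-1.71 to 1.12) from 18 and 7 UMIs, and had too few UMIs in macrophages to be counted (7 and 3).

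**Figure D5:**
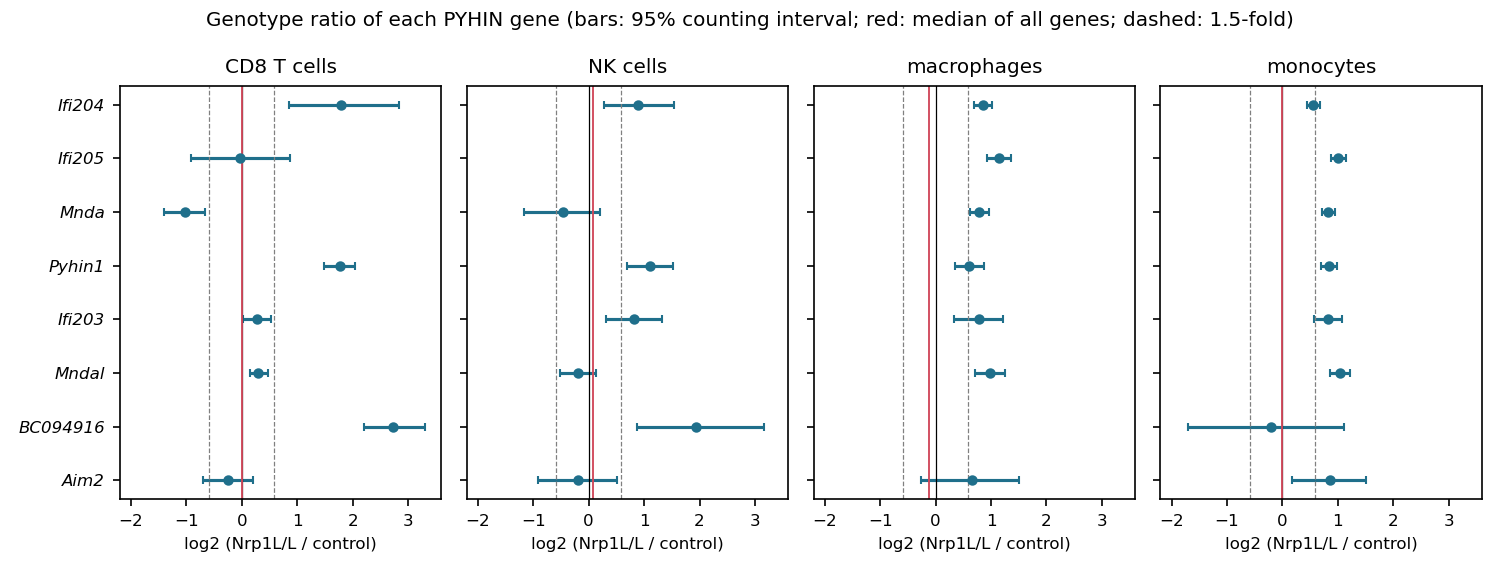
Log2 ratio of Nrp1L/L over control CPM (x axis) of each PYHIN gene (y axis) with at least 20 UMIs over both libraries, in 4 groups of cells; bars are 95% counting intervals, the red line is the median of all genes measured and dashed lines mark 1.5-fold. The myeloid points, with medians of 0.79 and 0.84, lie close together except for BC094916 in monocytes at -0.20. Those of CD8 T cells run from -1.03 for Mnda to 2.73 for BC094916.

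In CD8 T cells the members went separate ways. Of the 8, 3 were at least 1.5-fold higher in the Nrp1L/L library (Ifi204, Pyhin1 and BC094916) and 1 was lower (Mnda), against 16.9% and 14.1% of 8833 genes. The median log2 ratio was 0.29, beside 0.00 for all genes. On the lower side, 1 of 8 is near the share of all genes.

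BC094916 was higher by log2 2.73 (2.20 to 3.31), from 32 UMIs in 22 of 228 control cells to 246 UMIs in 110 of 385 Nrp1L/L cells. The Nrp1L/L cells had the lower depth, and after thinning 5.26% and 16.4% of cells had a UMI. Its near copy Pyhin1 was higher by 1.77 (1.49 to 2.05), from 130 to 512 UMIs, with 12.3% and 25.5% of thinned cells. Their summed UMIs were higher by 2.01 (1.77 to 2.27), from 56.2 to 227 CPM. Thinning before the cells were assigned gave 1.96 for BC094916 and 1.18 for Pyhin1, and the mean of each cell's CPM gave 2.09 and 1.21.

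Both ratios differed between cycling and other cells. In CD8 T cells with proliferation genes, Pyhin1 stood at 20.3 CPM in the control and 107 in Nrp1L/L cells (log2 2.39, 1.89 to 2.92), and in the other CD8 T cells at 103 and 192 (0.89, 0.55 to 1.25). For BC094916 the ratio was 3.73 (2.61 to 5.10) in cycling cells, from 3.46 to 45.9 CPM, and 1.73 (1.12 to 2.40) in the others, from 29.0 to 96.3 CPM. Both genes were lower in the cycling than in the other CD8 T cells of either library, and both were at least 1.5-fold higher in the Nrp1L/L library within each set of cells.

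Mnda was lower in Nrp1L/L CD8 T cells by log2 -1.03 (-1.40 to -0.66), from 171 UMIs in 72 cells to 97 UMIs in 47 cells. Thinned to 1 depth, 8.33% (5.09 to 12.7) of control and 4.94% (3.0 to 7.60) of Nrp1L/L cells had a UMI, intervals that overlap. Summed with Ifi205 the ratio was -0.87 (-1.21 to -0.54). It was -1.41 (-2.01 to -0.84) in cycling and -0.82 (-1.37 to -0.26) in other CD8 T cells. The 7 macrophage markers also had fewer UMIs in Nrp1L/L CD8 T cells, 45.5 CPM with 5 of 7 detected against 92.2 CPM with 7 of 7 in the control, and their part in the result was not tested.

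The ratio of Ifi204 in CD8 T cells, log2 1.79 (0.85 to 2.84), rested on 12 UMIs in 11 cells and 48 UMIs in 24 cells. It turned to -0.14 when cells that met several definitions were kept and to -0.03 among cycling cells, and was 3.15 under thinning and 4.23 without cycling cells, where the control held 1 UMI. Ifi203 and Mndal differed little, by 0.27 (0.02 to 0.53) and 0.30 (0.14 to 0.47), and Ifi203 gave -0.25 (-0.59 to 0.09) without cycling cells. Aim2 was at -0.24 (-0.69 to 0.20) and Ifi205 at -0.03 (-0.91 to 0.87), both with intervals that include 0.

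In NK cells 4 of the 7 members with enough UMIs were at least 1.5-fold higher in the Nrp1L/L library and 0 lower, against 22.5% and 14.1% of 6519 genes. The median log2 ratio was 0.81, beside 0.07 for all genes. BC094916 was higher by 1.94 (0.88 to 3.16), from 9 and 42 UMIs, and Pyhin1 by 1.10 (0.69 to 1.52). Thinning before the cells were assigned gave 0.71 for BC094916 and 0.99 for Pyhin1. Together the pair was higher by 1.23 (0.85 to 1.62).

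Ifi203 was higher by log2 0.81 (0.32 to 1.32) and Ifi204 by 0.89 (0.27 to 1.54) in NK cells. Neither held after thinning to 1 depth before the cells were assigned, which gave 0.27 for Ifi203 and -0.07 for Ifi204. Mnda at -0.47 (-1.16 to 0.21), Mndal at -0.19 (-0.51 to 0.13) and Aim2 at -0.20 (-0.92 to 0.52) had intervals that include 0, and thinning gave 0.28 for Mnda and -0.60 for Mndal. Ifi205 had 3 and 4 UMIs in NK cells and was not counted.

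Neighbouring PYHIN genes that are not among the 8 were listed in the same matrices. Ifi202b had 0 UMIs in all 4 groups. Gm4955 (now Ifi206), Pydc3 (Ifi208) and Pydc4 (Ifi213) were higher in Nrp1L/L CD8 T cells, by log2 1.46 (1.11 to 1.83), 1.56 (0.99 to 2.17) and 1.96 (1.41 to 2.54). Of their 3' end words 26.0%, 14.4% and 18.7% also occurred in another gene, mainly each other for Pydc3 and Pydc4. The counts of these genes are therefore uncertain too. At 1.5-fold, 3 of 3 measured were higher in CD8 T cells (16.9% of all genes) and 1 of 3 in NK cells (22.5%). In macrophages 2 of 4 were higher (14.4%) and in monocytes 1 of 4 (16.1%). In each group 0 were lower, against 14.1% to 23.3% of all genes. So few genes do not set these counts apart from the shares or from each other. AI607873 (Ifi207) was myeloid in both libraries, with myeloid over lymphoid ratios of 60.7-fold and 91.4-fold, and was higher by 0.61 (0.30 to 0.93) in Nrp1L/L macrophages, and its ratio in monocytes was 0.40 (0.16 to 0.65), under 1.5-fold. The RefSeq promoters of these 4 genes each held the ISRE word, and that of Ifi202b did not.

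The wider pathways were read from 4 lists, beside which 16.9% of all genes were higher in CD8 T cells, 22.5% in NK cells, 14.4% in macrophages and 16.1% in monocytes. Of 22 interferon-inducible genes outside the family, 20 of 21 measured were at least 1.5-fold higher in Nrp1L/L CD8 T cells, 16 of 20 in NK cells, 19 of 22 in macrophages and 17 of 21 in monocytes, with 0 lower in each group. Their median log2 ratios were 1.51, 1.25, 1.08 and 1.21, above the PYHIN medians of 0.29, 0.81, 0.79 and 0.84. Gbp2, an interferon-induced GTPase, stood at 18.0 and 125 CPM in CD8 T cells (log2 2.80, 2.38 to 3.24) and at 122 and 604 CPM in macrophages (2.30, 2.11 to 2.49). Ifi27l2a, another interferon-induced gene, was nearly level in macrophages, at 0.19 (0.12 to 0.25), and in monocytes, at -0.16 (-0.22 to -0.10).

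Of 15 interferon signalling genes, 9 of 15 measured were higher and 2 lower in CD8 T cells, 7 of 14 higher in NK cells and 7 of 15 in macrophages and in monocytes, with 0 lower in those 3. All genes gave 16.9%, 22.5%, 14.4% and 16.1% higher in that order, and 2 of 15 lower in CD8 T cells is close to the 14.1% of all genes. Stat2, a subunit of the complex that binds ISREs, stood at 3.12 and 15.3 CPM in CD8 T cells (log2 2.29, 1.25 to 3.50) and at 30.1 and 30.5 CPM in macrophages (0.02, -0.64 to 0.64). Socs1, a feedback inhibitor of interferon receptors, was higher by 2.04 (1.64 to 2.43) in macrophages and 1.88 (1.54 to 2.23) in monocytes.

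The wider nucleic acid sensing list held more higher than lower genes in each group. Of 16 genes of cytosolic nucleic acid sensing and STING signalling, 7 of 15 measured were higher in CD8 T cells and 8 of 13 in NK cells. In macrophages 8 of 15 were higher and in monocytes 7 of 14. All genes gave 16.9%, 22.5%, 14.4% and 16.1% higher in that order. On the lower side stood 1 gene in macrophages and 0 in the other groups. All genes gave 14.1%, 14.1%, 23.3% and 17.3% lower in the same order. The median log2 ratios of the list were 0.26, 0.63, 0.60 and 0.62. The RNA sensors Dhx58 and Ifih1 were higher in CD8 T cells, by log2 2.05 (1.49 to 2.64) and 1.91 (1.14 to 2.76). Mb21d1, which encodes the DNA sensor cGAS, was higher by 1.06 (0.23 to 1.86) in macrophages and level in monocytes, at -0.02 (-0.88 to 0.79).

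Of 12 inflammasome genes, 3 of 6 measured were higher in CD8 T cells, 2 of 6 in NK cells with 2 lower, 5 of 10 in macrophages and 4 of 10 in monocytes. The shares of all genes higher were 16.9%, 22.5%, 14.4% and 16.1%, and 14.1% were lower in NK cells, where 6 genes are too few to set either count apart. Casp1, the protease that Aim2 engages, was higher by log2 1.12 (0.71 to 1.53) in macrophages and 0.98 (0.71 to 1.25) in monocytes. It was also higher in CD8 T cells, by 1.08 (0.58 to 1.61), but lower in NK cells, at -0.90 (-1.61 to -0.20). Casp4, an inflammasome caspase that senses lipopolysaccharide, was higher by 1.18 (0.67 to 1.68) in macrophages and by 1.26 (0.93 to 1.59) in monocytes. Il1b, the cytokine that Casp1 matures, stood slightly lower in both, at -0.20 (-0.33 to -0.08) and -0.17 (-0.24 to -0.10). Pycard, the adaptor between Aim2 and Casp1, was level in CD8 T cells at -0.01 (-0.13 to 0.11).

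Across the 8 values of 4 groups in 2 libraries, the genes most like each member were found by Pearson's r of log2(CPM + 1) among 6088 genes with at least 200 UMIs. These values share libraries and lineage, and r is given as a description. Ifi204 was most like Fos, Nrros and Stard3 (r of 0.992 to 0.993), and Ifi205 most like Tarm1, Il6ra and Ppfia4 (0.993 to 0.996). Mnda was most like Ppfia4, Stom and Tarm1 (0.989 to 0.993), and Pyhin1 like Tmem184b, Apaf1 and Myo1f (0.972 to 0.994). Mndal was most like Il15ra, H13 and Vamp2 (0.916 to 0.953), Ifi203 like Pfkp, Cdkn2d and Clk3 (0.936 to 0.947), BC094916 like Abracl, Use1 and Pbrm1 (0.949 to 0.959), and Aim2 like Sema4d, Gtf2b and Cd69 (0.939 to 0.966). Between members, r was 0.98 for Ifi205 with Mnda, 0.90 for Ifi203 with Mndal and -0.17 for Pyhin1 with BC094916.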

How the data were processed

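Each deposited matrix gives whole-number UMI counts, and per the submitters' processing notes the authors used Cell Ranger 1.3 and the mm10 genome. Any use of strand or handling of reads shared between genes is not given in the sources used here. Doublets were scored per library with Scrublet (scanpy 1.11.5); its own threshold called 3 and 4 barcodes, under 0.5%, so the top 2% of scores were left out, keeping 1284 control and 1275 Nrp1L/L cells. Raw counts were summed per group of cells and library and divided by their total (CPM). Ratios carry exact conditional binomial intervals, levels exact Poisson and shares Clopper-Pearson intervals. Those of ratios and levels treat UMIs as independent and leave out the spread between cells. Of 25 Ifi205 UMIs in Nrp1L/L CD8 T cells, for example, 11 lay in 1 cell. Intervals that do not overlap are therefore apart in counting error only. Errors from amplification by PCR are not covered either. A gene was measured at 20 UMIs or more over both libraries and called at 1.5-fold, or at 4-fold between lineages. The intervals were tested on counts simulated under the same counting model, without spread between cells or libraries, which checks the arithmetic only. All 8 members are named, with, per list and group, the genes of the 2 largest and 2 smallest ratios at 50 UMIs or more, of which some are printed. Coordinates are from GENCODE and promoters from RefSeq. The members and lists were chosen with earlier results of these data known. Alternatives covered doublets, definitions of the groups, thinning, TMM (edgeR 4.0.16) and median-of-ratios scaling, cell means, cycling cells, the UMI minimum and the fold; the cycling cells alone and the summed pairs were added after seeing the data. The result of 1 gene of the lists is not reported here.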

Additional observations from a re-analysis of the deposited data

Results flagged for a closer look

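Mnda stood in opposite directions in CD8 T cells and myeloid cells under the same contrast. Its log2 ratio of Nrp1L/L over control was -1.03 in CD8 T cells but 0.79 in macrophages and 0.83 in monocytes. In NK cells it was -0.47 (-1.16 to 0.21), an interval that includes 0. The shares of thinned CD8 T cells with an Mnda UMI, 8.33% and 4.94%, had overlapping intervals. The counting intervals of the CD8 T cell ratio and of either myeloid ratio do not overlap, and with 1 library per genotype the difference was not tested. In dendritic cells, defined by Flt3 and MHC class II UMIs and used in no comparison above, Ifi205 stood at 613 CPM in the control library, above its control monocyte level of 393 CPM. In CD3+ cells without CD8, also outside the comparisons, BC094916 stood at 36.0 CPM in the control library, above its 11.1 CPM in control CD8 T cells. The order was reversed in the Nrp1L/L library, at 50.7 CPM against 73.7 CPM in CD8 T cells. Cycling cells were 21.9% of the control CD3+ group and 47.8% of control CD8 T cells. Without cycling cells, control CD8 T cells stood at 29.0 CPM.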

How the results depend on the processing

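Over 8 planned settings, 217 of 240 recomputed ratios of 30 pairs of gene and cell group stayed within their counting interval, 21 left it (12 of them under thinning to 2500 UMIs) and 2 that had passed 1.5-fold changed sign. A further 5 changed sign from a ratio under 1.5-fold. Ifi204 in CD8 T cells became -0.14 with cells of several definitions kept (and -0.03 among cycling cells alone, added later), and Ifi204 in NK cells became -0.07 under thinning; the cause was not tested. The count of members higher in Nrp1L/L NK cells went from 4 to 2 under thinning and to 2 at a fold of 2. The count lower in NK cells went from 0 to 2 with cells of several definitions kept, and to 1 under thinning, under each cell's mean CPM and without cycling cells. At a fold of 2 the counts higher fell to 1 in macrophages and 2 in monocytes, by the construction of that setting. The count at least 4-fold higher in lymphoid cells in both libraries went from 0 to 1 under each cell's mean CPM and to 1 without cycling cells. The other counts stayed within 1.5 times their value. Depth limits BC094916 in myeloid cells, Ifi205 in NK cells and Aim2 in macrophages. No paired analysis was possible because each genotype has 1 library.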

Other observations

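The smaller groups of cells showed further differences between members. In control dendritic cells (27 cells) Ifi205 led at 613 CPM (529 to 705), before Mnda at 251 (199 to 312), Pyhin1 at 95.2 (64.2 to 136), Mndal at 92.0 (61.6 to 132) and Ifi204 at 66.6 (41.3 to 102), an order unlike that of macrophages and monocytes, where Ifi204 led. The Nrp1L/L library held 6 such cells, with Ifi205 at 822 CPM (602 to 1096) and Mnda at 322 (191 to 508). A BC094916 UMI was found in 0 of the 27 control and 0 of the 6 Nrp1L/L dendritic cells; in the control this allows a share of cells with a UMI of up to 12.8% (Clopper-Pearson).

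In CD3+ cells without CD8 UMIs (137 control and 273 Nrp1L/L cells), Mndal was again the most abundant member, at 222 CPM (194 to 253) and 240 (214 to 268). BC094916 stood at 36.0 CPM (25.2 to 49.9) and 50.7 (39.3 to 64.4), so the intervals of the libraries overlapped there, unlike in CD8 T cells. Of the 43 Ifi205 UMIs in the control cells, 27 lay in 1 cell.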
